A study of Mus musculus with 8 samples.

Results

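Interferon-induced genes were examined in bulk RNA-seq libraries of mouse ventricular heart tissue. The genes were chosen by name: Ifi genes followed by a digit or by t (Ifit and Ifitm), Ifih1, Oas genes, Gbp, Irgm, Isg and Irf genes, a pair of STAT genes, Usp18, Mx1, Mx2, Bst2 and Rsad2. The names matched 65 of 13677 genes in the table, and all 65 passed the filter on low values and were tested among 13544 genes. By role they fell into 11 STAT and IRF factors, 6 IFIT genes, 4 IFITM genes, 8 OAS genes, 11 GTPases of the GBP, IRGM and MX families, 9 PYHIN genes of the Ifi2xx cluster, 4 genes of the Isg names with Usp18, and 9 others. The remaining 3, Irf2bp1, Irf2bp2 and Irf2bpl, encode proteins named for binding to IRF2 and share the start of the name only.

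The study set Vhl-deficient hearts of the Wt1-Cre mouse model beside wild-type hearts. Vhl encodes the von Hippel-Lindau protein, which marks hypoxia-inducible factors for degradation, and Wt1 is a gene of the epicardium, so that Cre under its control acts in only some cells of the tissue. There were 8 libraries, 3 labelled DKO, 2 labelled KO (numbered 1 and 3) and 3 labelled C. The labels state no treatment for any group, do not spell out the abbreviations, do not say which genes were changed in DKO or in KO or whether C carries Cre, and give no age or strain. No label states that each sample is its own animal, so the p-values rest on a spread among libraries that may be technical only. Vhl itself was not lower in DKO or KO: its signal was 11.2, 10.9 and 8.61 in DKO, 8.33 and 8.96 in KO and 8.97, 7.50 and 7.26 in C. The labels of KO and DKO are therefore not checked by this gene, and each direction given is one between libraries so labelled.

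Interferons are secreted proteins that signal through cell-surface receptors and the JAK kinases. Type I and type III interferons lead to a complex of STAT proteins with IRF9 that binds the interferon-stimulated response element (ISRE), and type II interferon leads to STAT dimers that bind the gamma-activated sequence (GAS). The genes switched on in this way encode proteins that sense or degrade viral RNA, attack the membranes of vacuoles that hold microbes, and present antigens. In the heart, resident macrophages, endothelial cells, fibroblasts and cardiomyocytes all respond to interferon.

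RefSeq promoters (GRCm38.p6) were at hand for 51 of the 65 members, in 63 records. The ISRE core letters GAAANNGAAA, on either strand of the 250 bases before the start, were found in 27 of the 51 members (52.9%), against 3.46% of all 27025 genes in the RefSeq promoter table. The GAS letters TTCNNNGAA, which read alike on both strands, were found in 11 members (21.6%), against 8.13% of all genes. A match of the first motif overlapped a match of the second in 1 of the 63 member records. By role the ISRE core was in 6 of 6 GTPase genes, 6 of 7 PYHIN genes, 5 of 6 IFIT genes and 4 of 6 OAS genes, against 2 of 9 STAT and IRF genes, 1 of 4 IFITM genes and 0 of 3 Irf2bp genes. A match is a description of letters in this window and not of a bound site. The promoters of Gbp7 (chr3:142530086-142530335, plus strand) and Ifi208 (chr1:173673415-173673664, plus strand) are shown because both genes were lower in KO. That of Isg15 (chr4:156200819-156201068, minus strand) is shown because it holds 3 overlapping ISRE core matches. With the authors' normalised values, Isg15 did not pass the test in any comparison. That of Irf2bpl (chr12:86884815-86885064, minus strand), the member that was higher in KO, is shown because it holds no match to either motif. Each is written 5′ to 3′ on the strand of its gene, with the ISRE core matches in capitals.
Gbp7: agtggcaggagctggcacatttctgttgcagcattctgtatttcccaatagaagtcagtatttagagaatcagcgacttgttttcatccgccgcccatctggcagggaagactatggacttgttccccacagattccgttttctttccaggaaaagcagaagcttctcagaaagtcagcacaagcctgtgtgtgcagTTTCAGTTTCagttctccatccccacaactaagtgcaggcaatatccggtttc
Ifi208: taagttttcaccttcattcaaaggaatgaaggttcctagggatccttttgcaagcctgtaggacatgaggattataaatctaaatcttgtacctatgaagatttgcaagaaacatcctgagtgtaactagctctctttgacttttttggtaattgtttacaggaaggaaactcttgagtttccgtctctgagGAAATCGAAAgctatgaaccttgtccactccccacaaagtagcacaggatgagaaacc
Isg15: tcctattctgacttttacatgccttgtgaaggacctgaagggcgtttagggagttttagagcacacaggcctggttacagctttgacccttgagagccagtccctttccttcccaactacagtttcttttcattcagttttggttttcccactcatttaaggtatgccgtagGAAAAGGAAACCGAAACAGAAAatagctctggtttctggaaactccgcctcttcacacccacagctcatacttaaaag
Irf2bpl: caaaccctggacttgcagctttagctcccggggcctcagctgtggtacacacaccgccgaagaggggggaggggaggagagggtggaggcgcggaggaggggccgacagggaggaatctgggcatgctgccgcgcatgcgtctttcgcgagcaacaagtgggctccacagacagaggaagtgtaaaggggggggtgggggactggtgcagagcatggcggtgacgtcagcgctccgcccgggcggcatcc

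Values are the authors' normalised signal, reads expressed relative to each library's effective size (its total multiplied by a scaling factor). Totals were 15028176 to 20561196 reads in DKO, 18506002 and 21202385 in KO and 17212475 to 17648456 in C. The scaling factors were 0.705 to 1.06 in DKO, 1.36 and 1.37 in KO and 0.925 to 0.964 in C. The 65 members took 0.0789% to 0.106% of the reads in DKO, 0.133% and 0.134% in KO and 0.0919% to 0.102% in C, while their summed signal was 913 to 1448 in DKO, 978 and 981 in KO and 955 to 1109 in C. KO was thus above both other groups by share of reads, and inside their range after the authors' scaling. DKO 2 stood apart: 41.6% of its reads were mitochondrial and 51.5% came from its 10 most abundant genes, against 16.2% to 29.9% and 21.96% to 38.1% in the other libraries. DKO 2 held the highest signal of all libraries for 39 members (60%), as it did for 25.2% of all genes, and DKO 3 held the lowest for 20 members (30.8%), as it did for 13.6% of all genes. The part of these library differences in the results was not tested.

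**Figure D1:**
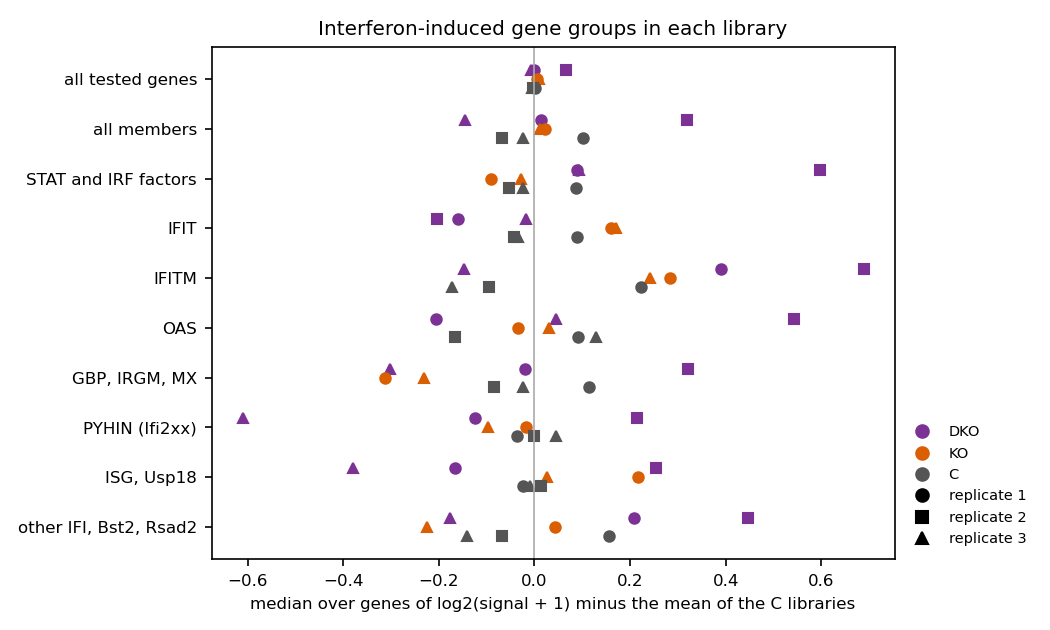
Median over genes of log2(signal + 1) minus the mean of the 3 C libraries (horizontal axis). Rows are all tested genes, all members and each role of the members except the Irf2bp genes, which are not drawn. Colours are the groups and shapes the replicates; over all members DKO 2 stood at 0.32 and DKO 3 at -0.15, while the 2 KO libraries stood at 0.02 and 0.01.

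Levels were compared between members per kilobase of the longest annotated transcript. Ifitm3 and Ifitm2, which encode membrane proteins that block virus entry, had the highest. The signal per kilobase of Ifitm3 was 157 ± 46.9 in DKO, 137 ± 28.3 in KO and 127 ± 25.3 in C (SD, n = 3, 2 and 3). That of Ifitm2 was 138 ± 36.6 in DKO, 119 ± 10.6 in KO and 107 ± 15.2 in C, within the spread of Ifitm3. Ifi27l2a and Bst2 followed. At the low end were Oas3, Irf4 and Mx1, with 117, 142 and 195 reads over all 8 libraries together.

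The first comparison set KO against C. Log2 fold changes are differences of the mean log2(signal + 1) and carry their SE, and p-values are from limma with Benjamini-Hochberg adjustment over all 13544 genes, with a threshold of 0.05. Of the 65 members, 4 passed (6.15%), against 13.9% of all genes tested. In KO, 1 member rose, Irf2bpl (6.9% of all genes rose), and 3 fell, Gbp7, Ifi205 and Ifi208 (7.01% of all genes fell). At an unadjusted p under 0.05 there were 13 members, against 29.1% of all genes. The median log2 fold change was 0.0011 over the members and 0.0082 over all genes. The KO and C values did not overlap for 12 members that were higher (27.5% of all genes) and 16 that were lower (26.7% of all genes). These shares are near or under those of all genes, so the count is no result about the members as a list.

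The calls moved with the libraries and the scaling. Without DKO 2, which enters only the shared estimate of the spread, 11 members were called, 3 higher and 8 lower, against 21.9% of all genes. Scaling by total reads instead, under which the median of all genes stood at 0.48, gave 16 members higher and 0 lower, against 35.5% of all genes, and 24 of the 32 members with a negative KO minus C difference then had a positive one. Irf2bpl was called under both, and under every other alternative run for this comparison.

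**Figure D2:**
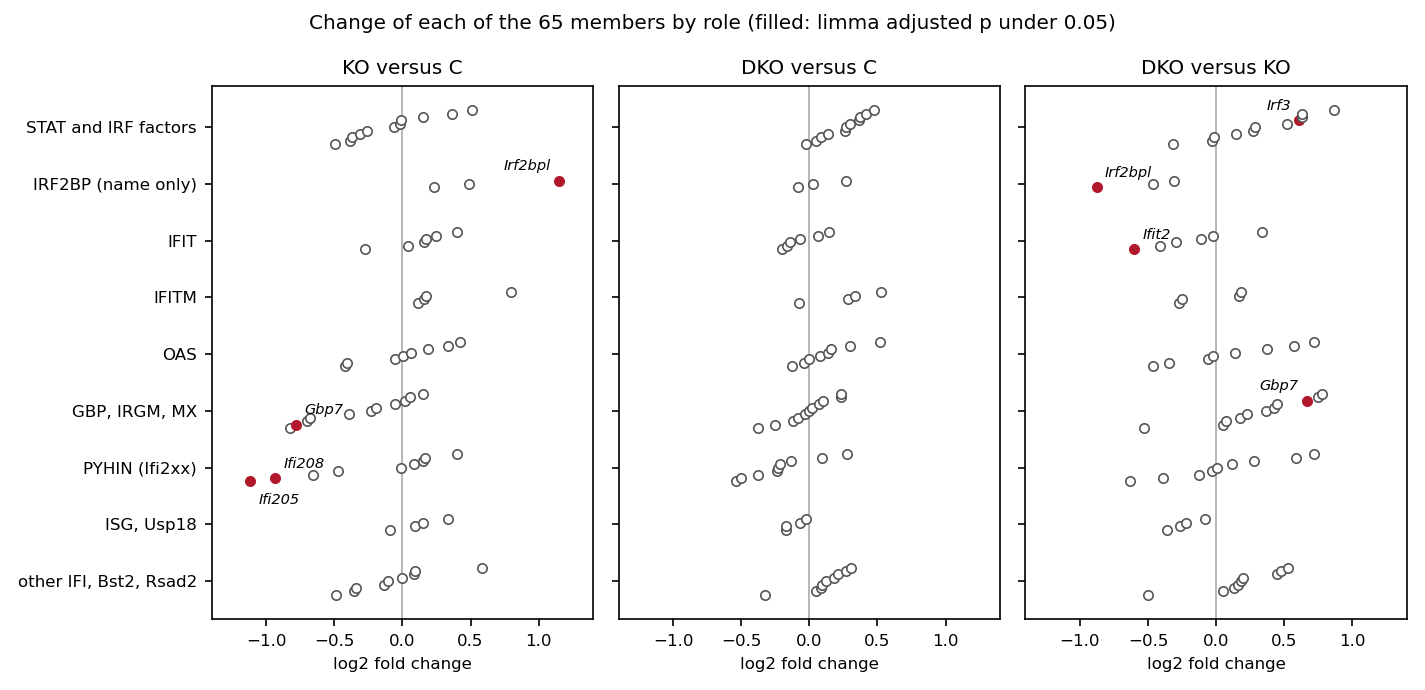
Log2 fold change of each of the 65 members (points) by role (rows) in KO versus C, DKO versus C and DKO versus KO (panels). Filled and named points passed an adjusted p of 0.05: 4 in KO versus C, 0 in DKO versus C and 4 in DKO versus KO.

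The factors that carry the interferon signal into the nucleus did not pass the test in KO against C, 0 of 11, against 13.9% of all genes. Stat2, a transducer of type I and type III interferon signals, had a signal of 26.6, 64.7 and 39.8 in DKO, 25.2 and 27.3 in KO and 31.1, 26.1 and 38.7 in C. Irf9, the DNA-binding partner of the STAT proteins, had 23.4, 34.9 and 23.5 in DKO, 23.6 and 24.6 in KO and 25.6, 21.5 and 28.8 in C. For Stat2 and Irf9 DKO 2 was the highest library, and neither the KO nor the DKO values lay apart from C.

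Among the IRF factors that drive or follow interferon production, Irf1 had a signal of 28.2, 39.7 and 23.4 in DKO, 22.2 and 15.999 in KO and 29.2, 23.3 and 21.96 in C. Irf7, which amplifies type I interferon production, had 33.8, 67.0 and 45.6 in DKO, 29.6 and 35.5 in KO and 46.5, 41.3 and 40.6 in C. KO lay below C for Irf7 without overlap, but the difference of -0.39 ± 0.24 did not pass the test (limma adjusted p = 0.303) and turned to 0.14 under scaling by total reads. Irf5, a factor downstream of Toll-like receptors, had 5.81, 6.56 and 4.18 in DKO, 5.22 and 5.98 in KO and 3.89, 3.47 and 3.55 in C. All 5 DKO and KO libraries were above all 3 C libraries for Irf5. The differences were 0.47 ± 0.18 in DKO (limma adjusted p = 0.569) and 0.51 ± 0.20 in KO (limma adjusted p = 0.118), neither past the threshold. Under scaling by total reads the KO minus C difference of Irf5 was 0.97 and passed (limma adjusted p = 0.00587).

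Irf3, the factor that starts type I interferon production after nucleic acid sensing, lies on chromosome 7 (44997648 to 45002848, plus strand, GRCm38) and overlaps Bcl2l12 on the other strand. Its signal was 40.5, 58.0 and 43.9 in DKO, 31.0 and 29.8 in KO and 41.1, 33.0 and 40.5 in C. Both KO libraries were below all DKO and all C libraries. The DKO minus KO difference of 0.61 ± 0.18 passed narrowly (limma adjusted p = 0.0492), and the KO minus C difference of -0.31 ± 0.18 did not (limma adjusted p = 0.28) and turned to 0.21 under scaling by total reads. The call ended without KO 1 (adjusted p = 0.168), KO 3 (0.247), DKO 2 (0.0612), DKO 3 (0.0536), C 1 (0.0788), C 2 (0.0707) or C 3 (0.077), with quantile normalization (0.0543) and with a trend with transcript length removed (0.0782), and the sign turned under scaling by total reads (-0.03). The strand setting of the counting is not given in the sources used here, so reads of Irf3 and Bcl2l12 cannot be told apart. The same limit applies to Irf1 with Gm17334, Irf5 with Tnpo3 and Irf7 with Phrf1, each on the other strand. Irf9 overlaps Rnf31, and Ifi203 overlaps Mndal, on the same strand.

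The Irf2bp genes, members through their name, held the largest positive difference. Irf2bpl, whose product is a nuclear RING-finger protein, lies on chromosome 12 (86880701 to 86884798, minus strand). Its signal was 26.8, 24.6 and 22.4 in DKO, 49.7 and 42.4 in KO and 18.5, 23.9 and 18.6 in C. Both KO libraries were far above the other 6, and DKO overlapped C. Irf2bpl rose in KO against C by 1.15 ± 0.17 on the log2 scale, 2.22-fold (limma adjusted p = 0.00178). It was lower in DKO than in KO by a log2 difference of -0.88 ± 0.17 (limma adjusted p = 0.00817). The first call held without each library in turn (adjusted p from 0.0011 to 0.0251), and the second ended only without KO 1 (0.0824). Irf2bp2, named as a co-repressor partner of IRF2, had 31.3, 32.2 and 26.6 in DKO, 32.9 and 52.6 in KO and 29.2, 29.3 and 29.7 in C, so that KO 3 alone was far above C (limma adjusted p = 0.115). Irf2bp1 was within 18.6 to 27.8 in all libraries.

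Of the 11 interferon-induced GTPases, 1 fell in KO and 0 rose, against 7.01% and 6.9% of all genes. Those of the GBP and IRGM families act on the membranes of vacuoles that hold microbes. Gbp7, a guanylate-binding protein, lies on chromosome 3 (142530342 to 142550149, plus strand) beside Gbp5, Gbp3 and Gbp2. Its signal was 15.6, 22.3 and 15.2 in DKO, 12.03 and 9.41 in KO and 20.7, 17.7 and 18.8 in C. Both KO libraries were below all DKO and C libraries, and DKO overlapped C. Gbp7 fell in KO against C by 0.78 on the log2 scale (a difference of -0.78 ± 0.19, 0.582-fold, limma adjusted p = 0.0206). Without KO 1 the adjusted p was 0.0521, without KO 3 0.203, without C 1 0.0801 and without C 3 0.0611, and under scaling by total reads the difference was -0.28 (adjusted p = 0.319).

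The other GBP genes of both clusters had negative KO minus C differences that did not pass the test, apart from Gbp6, and those of Gbp2 and Gbp5 turned positive under scaling by total reads (0.27 and 0.08). With DESeq2 on the recovered reads, Gbp3, Gbp4 and Gbp9 were called lower in KO (DESeq2 adjusted p = 0.0376, 0.0269 and 0.0301). That fit called 18.4% of all genes. Under scaling by total reads the KO minus C differences of these 3 genes were -0.17, -0.32 and -0.18 (limma adjusted p = 0.604, 0.314 and 0.549). With median centring Gbp9 was called lower (limma adjusted p = 0.045). Gbp3 had a signal of 22.9, 36.0 and 20.0 in DKO, 13.8 and 15.2 in KO and 29.6, 23.2 and 19.4 in C (KO minus C -0.68 ± 0.24, limma adjusted p = 0.0829). Gbp4, on chromosome 5, had 17.3, 40.1 and 20.8 in DKO, 14.4 and 13.8 in KO and 27.2, 20.8 and 30.6 in C (-0.83 ± 0.29, limma adjusted p = 0.0762). Gbp6 had 17.1, 24.9 and 17.8 in DKO, 26.4 and 31.4 in KO and 26.7, 27.3 and 23.8 in C. The KO values of Gbp3 and Gbp4 lay below all DKO and C values, whereas those of Gbp6 lay above all DKO values and overlapped C. In all, KO and C did not overlap for 6 of the 7 GBP genes, each lower in KO (as for 26.7% of all genes), and overlapped for Irgm1, Irgm2, Mx1 and Mx2. Gbp9 and Gbp4 overlap on the same strand, Gbp7 overlaps a processed pseudogene, and the family members are close in sequence, so how the authors' counting split reads among them is uncertain.

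**Figure D3:**
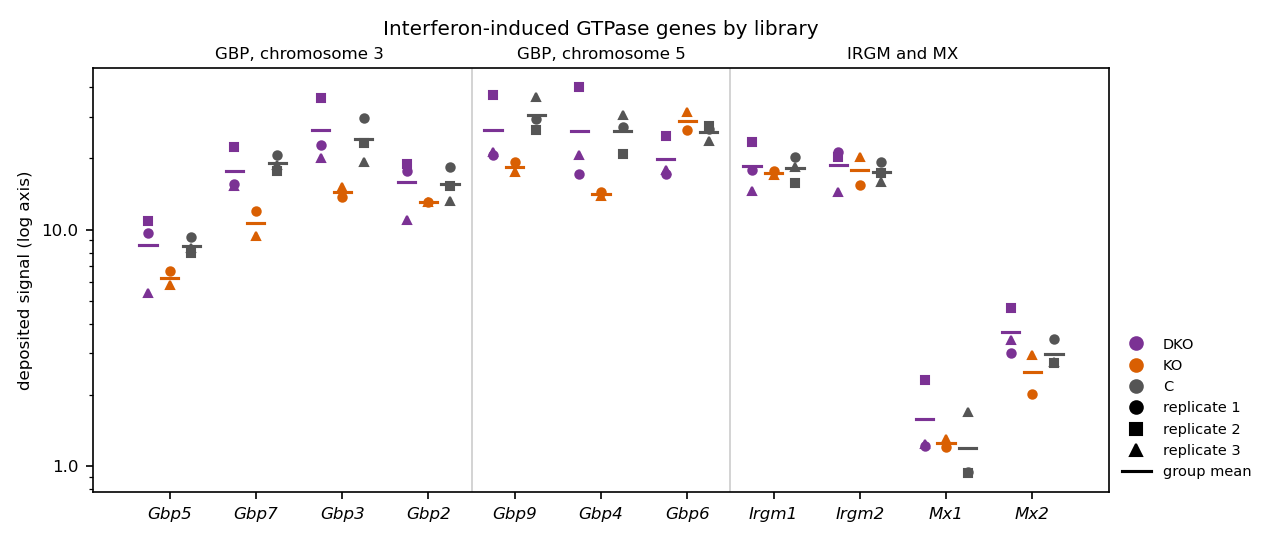
Deposited signal on a log axis (vertical) of the 11 interferon-induced GTPase genes (horizontal), by library. Horizontal bars are group means; the KO values of Gbp7 (12.03 and 9.41) lie under all DKO and C values.

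GBP genes are made by endothelial cells and macrophages among others, and markers of both types were measured in the same libraries. Of 9 endothelial markers, 1 fell in KO against C, the tight-junction gene Cldn5 (-1.04 ± 0.30, limma adjusted p = 0.0407), and the summed signal of the 9 was 751 to 1336 in DKO, 845 and 903 in KO and 826 to 1155 in C. Of 12 macrophage markers, 3 rose in KO (Cd14, C1qb and Mpeg1) and 0 fell, and their summed signal was 383 to 485 in DKO, 479 and 492 in KO and 337 to 374 in C. Over all genes, 6.9% rose and 7.01% fell in KO against C. In bulk tissue, fewer cells of a type and less RNA per cell cannot be told apart, and the part of these markers in the GBP values was not tested.

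Of the 9 PYHIN genes on chromosome 1, whose family holds sensors of cytosolic and nuclear DNA, 2 fell in KO and 0 rose, against 7.01% and 6.9% of all genes. Ifi205 (174011998 to 174031810, minus strand) had a signal of 4.99, 3.92 and 2.10 in DKO, 1.36 and 2.83 in KO and 3.95, 7.44 and 5.65 in C. Its KO values lay below C without overlap, with DKO in between and overlapping both. Ifi205 fell in KO against C by a log2 difference of -1.12 ± 0.32, 0.46-fold (limma adjusted p = 0.0367). The adjusted p was 0.284 without KO 1, 0.0729 without KO 3, 0.12 without C 2 and 0.0962 without C 3, and 0.0866 under scaling by total reads.

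Ifi208 (173673675 to 173698395, plus strand), which carries the ISRE core shown above, had a signal of 1.63, 2.88 and 2.33 in DKO, 1.36 and 0.641 in KO and 2.66, 2.80 and 2.81 in C. These are low levels, with 34 and 18 reads in KO, and both KO libraries were below the other 6. It fell in KO against C by a log2 difference of -0.93 ± 0.24, 0.523-fold (limma adjusted p = 0.0236). That call ended without KO 3 (0.241), C 1 (0.0682), C 2 (0.0694) or C 3 (0.0696), and under scaling by total reads (0.0531). The other 7 genes of the cluster did not pass. Ifi204, a mouse DNA sensor related to human IFI16, had 4.85, 4.39 and 2.79 in DKO, 6.08 and 7.26 in KO and 3.95, 4.79 and 5.78 in C, with KO above C (0.40 ± 0.23, limma adjusted p = 0.271). Ifi203 had 19.1, 48.4 and 23.8 in DKO, 28.2 and 29.1 in KO and 45.0, 34.7 and 41.5 in C, with KO below C (-0.47 ± 0.30, limma adjusted p = 0.32, and 0.05 under scaling by total reads). The genes of the cluster resemble each other, and Ifi203-ps is a pseudogene, so their separate values carry the uncertainty of read assignment.

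The IFIT genes, whose products bind viral RNA, gave 0 of 6 calls in KO against C (13.9% of all genes) and 1 in DKO against KO (11.8% of all genes). Ifit2, on chromosome 19 (34550694 to 34576419, plus strand), had a signal of 9.12, 9.20 and 7.92 in DKO, 13.8 and 13.7 in KO and 11.2, 10.04 and 9.42 in C. The groups did not overlap: all DKO values were below all C values, and those were below both KO values. Ifit2 was lower in DKO than in KO by a log2 difference of -0.60 ± 0.16, 0.659-fold (limma adjusted p = 0.0329), while KO minus C was 0.40 ± 0.16 (limma adjusted p = 0.121) and DKO minus C was -0.20 ± 0.14 (limma adjusted p = 0.707). The call held without DKO 2 and ended without KO 1 (0.153), KO 3 (0.189), DKO 3 (0.0635), C 1 (0.0546), C 2 (0.0613) or C 3 (0.0518). Under scaling by total reads the KO minus C difference of Ifit2 was 0.91 and passed (limma adjusted p = 0.0067). Of the other 5 IFIT genes, the log2 differences of KO minus C under the authors' scaling ran from -0.27 for Ifit1 to 0.25 for Ifit3b.

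Of the 4 IFITM genes, all had positive KO minus C differences and 0 passed the test, against 13.9% of all genes. Ifitm1 had the largest, with a signal of 3.65, 4.58 and 1.87 in DKO, 4.07 and 4.11 in KO and 1.74, 2.62 and 1.51 in C. KO lay above C without overlap, and the difference of 0.80 ± 0.28 did not pass (limma adjusted p = 0.077). Among the alternatives it passed with the length trend removed (limma adjusted p = 0.0189) and with the replicate block (0.0268). It also passed without DKO 2 (0.0444), without DKO 3 (0.0286) and under scaling by total reads (0.00397). The 8 OAS genes, which make the second messenger that activates RNase L or are related to those that do, gave 0 calls in any comparison. Of all genes, 13.9% were called in KO against C, 0.155% in DKO against C and 11.8% in DKO against KO. Oas2 varied widely between libraries, with a signal of 17.3, 70.3 and 48.7 in DKO, 19.3 and 28.3 in KO and 29.9, 24.8 and 42.7 in C. The range within DKO alone was wider than the difference between any group means. Oas1c had 2.18, 1.93 and 1.81 in DKO, 0.886 and 1.13 in KO and 1.26, 0.512 and 1.64 in C, with DKO above all other libraries (DKO minus C 0.52 ± 0.23, limma adjusted p = 0.588).

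Isg15, a ubiquitin-like modifier and a common marker of an interferon response, had a signal of 7.47, 8.07 and 4.35 in DKO, 7.54 and 6.22 in KO and 8.11, 7.32 and 6.77 in C. The KO minus C difference was -0.09, with a 95% interval of -0.60 to 0.41 (0.39 under scaling by total reads), and that of DKO minus C was -0.17, with an interval of -0.62 to 0.28. Usp18, which removes ISG15 from proteins and restrains the type I receptor, had 4.48, 7.50 and 3.77 in DKO, 6.40 and 6.15 in KO and 5.85, 5.76 and 5.84 in C. Its values in C lay within a narrow range, and those in DKO fell on either side of it. Under the authors' scaling neither gene passed the test in any comparison, and the intervals leave room for differences of about the size seen for Ifit2. Under scaling by total reads both were called lower in DKO than in KO, as were 23 members in all (45.8% of all genes were called). The differences were -0.66 for Isg15 (limma adjusted p = 0.0432) and -0.84 for Usp18 (0.00877).

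Among the other members, 0 of 9 passed in any comparison, against 13.9%, 0.155% and 11.8% of all genes in KO against C, DKO against C and DKO against KO. Ifi30, a lysosomal thiol reductase of antigen processing found in macrophages, had a signal of 5.72, 8.16 and 4.93 in DKO, 8.96 and 9.24 in KO and 5.79, 6.36 and 5.10 in C. Both KO libraries were above the other 6 (KO minus C 0.59 ± 0.21, limma adjusted p = 0.0803). Among the alternatives this difference passed with the length trend removed (limma adjusted p = 0.0156) and with the replicate block (0.0413). It also passed without DKO 2 (0.0271) and under scaling by total reads (0.0025). The macrophage marker sum was 485 in DKO 1, above the 479 of KO 3 and below the 492 of KO 1, and its part in the Ifi30 values was not tested. Rsad2, an antiviral enzyme also called viperin, was the member of the 9 with the most negative KO minus C difference (-0.48 ± 0.19, limma adjusted p = 0.115, and 0.03 under scaling by total reads). Ifih1, the RNA sensor MDA5, was below C in KO without overlap (-0.34 ± 0.20, limma adjusted p = 0.284, and 0.14 under scaling by total reads).

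**Figure D4:**
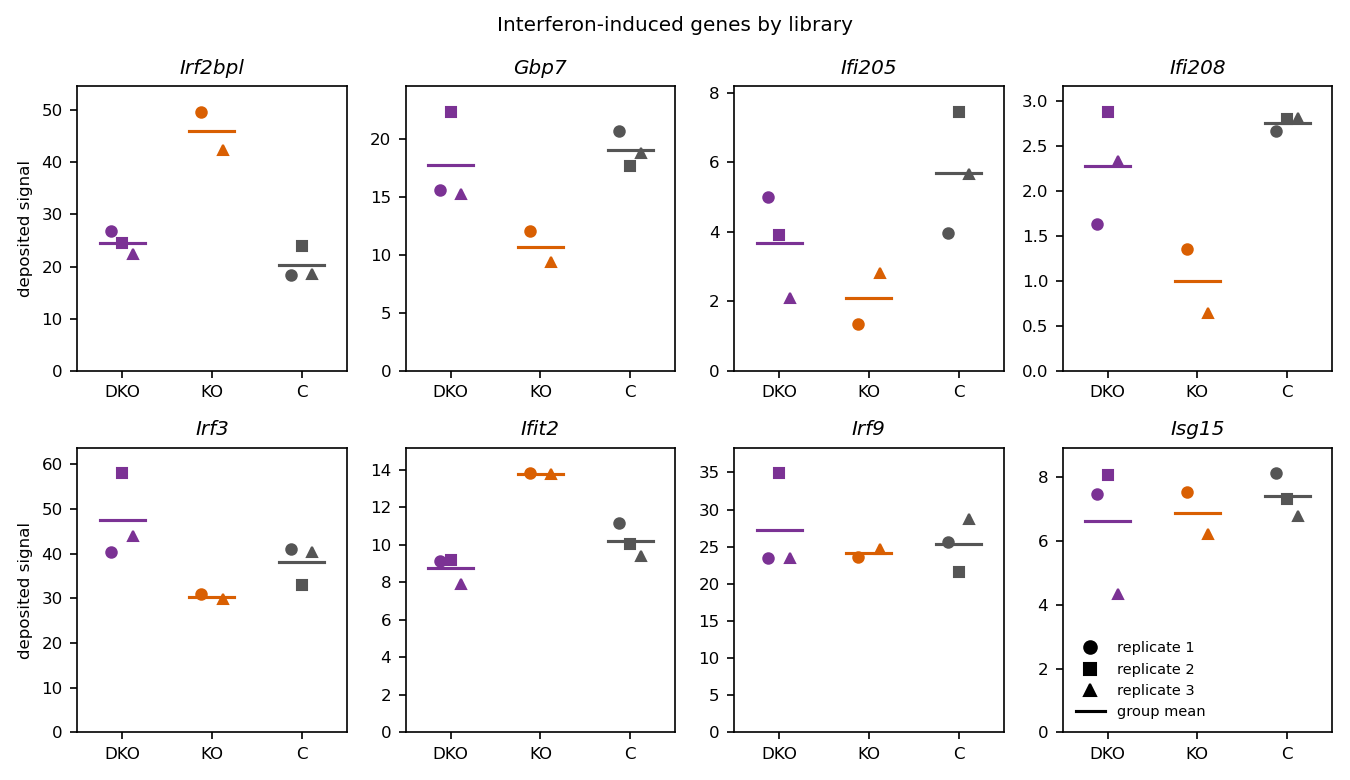
Deposited signal (vertical axes, from 0) of the 6 members past the threshold in any comparison and of Irf9 and Isg15, by library in DKO, KO and C. Shapes are replicates and bars are group means; the KO values of Irf2bpl, 49.7 and 42.4, lie above all others, and the values of Irf9 and Isg15 overlap between groups.

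In DKO against C, 0 of 65 members passed in limma, against 0.155% of all genes (0.0738% higher and 0.0812% lower), and 0 passed in edgeR's quasi-likelihood test and in DESeq2 on the recovered reads. At an unadjusted p under 0.05 there were 3, Irf5, Gbp6 and Oas1c, against 8.5% of all genes. The median log2 fold change was 0.06 over the members and 0.01 over all genes. DKO and C did not overlap for 3 members that were higher, Oas1c, Irf4 and Irf5 (6.5% of all genes), and 1 that was lower, Ifit2 (7.25% of all genes). The differences ran from -0.54 for Ifi205 to 0.53 for Ifitm1.

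The comparison of DKO with KO shares the KO libraries with the first comparison, so values that differ in KO alone enter both. Of the 65 members, 4 passed (6.15%), against 11.8% of all genes: Irf3 and Gbp7 were higher in DKO (6.08% of all genes) and Irf2bpl and Ifit2 were lower (5.73%). At an unadjusted p under 0.05 there were 16 members, against 28.9% of all genes. The median was 0.13 over the members and 0.01 over all genes. Gbp7 was higher in DKO by 0.66 ± 0.19 (limma adjusted p = 0.0463), a call that ended without KO 1 (0.0902), KO 3 (0.322), DKO 2 (0.0667), C 1 (0.0708), C 2 (0.074) or C 3 (0.0728), and under scaling by total reads (0.866). Groups did not overlap for 12 members that were higher (20.5% of all genes) and 11 that were lower (21.1%).

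Without DKO 2, 5 members were called in DKO against KO, all lower in DKO: Oasl2, Ifi30, Irf2bpl, Ifit2 and Gbp6, against 14.7% of all genes. Irf3 and Gbp7, the members higher in DKO, did not pass without that library. Scaling by total reads, with the median of all genes at -0.57, gave 0 members higher and 23 lower, against 45.8% of all genes, and 30 of the 38 members with a positive DKO minus KO difference then had a negative one.

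The genes that act before and beside the members were taken from lists of the pathway. Of the 8 genes for interferon receptors and JAK kinases, 0 passed in any of the 3 comparisons, and their median KO minus C difference was 0.11. Of 15 tested genes of nucleic acid sensing, 0 passed in any comparison (median 0.31 in KO minus C). The shares of all genes were 13.9% in KO against C, 0.155% in DKO against C and 11.8% in DKO against KO. The interferon genes themselves were not analysed here.

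Among 14 negative regulators of interferon signalling, 2 rose and 1 fell in KO against C, while 6.9% of all genes rose and 7.01% fell. Socs3, a feedback inhibitor of JAK kinases that other cytokines also induce, had a signal of 25.3, 20.4 and 11.0 in DKO, 24.2 and 7.92 in KO and 3.46, 4.55 and 4.73 in C. All DKO and KO libraries were above all C libraries, with a wide spread in both groups. The KO minus C difference was 1.52 ± 0.39 (limma adjusted p = 0.024), and moved to 0.77 without KO 1 and 2.27 without KO 3. The call ended without KO 1 (0.263), C 1 (0.0786), C 2 (0.0547) or C 3 (0.057). Ptpn1, a phosphatase of JAK2 and TYK2, had 17.5, 20.4 and 18.2 in DKO, 25.8 and 27.3 in KO and 17.1, 17.3 and 16.5 in C. It rose in KO by 0.62 ± 0.15 (limma adjusted p = 0.0183), with adjusted p of 0.0829 without KO 1, 0.146 without KO 3, 0.0659 without C 1, 0.0609 without C 2 and 0.0661 without C 3. Rnaseh2c, a subunit of the RNase H2 complex whose loss in humans causes interferon-driven disease, had 25.7, 26.9 and 24.9 in DKO, 15.9 and 14.3 in KO and 29.2, 26.9 and 26.6 in C. Both KO libraries were below the other 6. The KO minus C difference was -0.83 ± 0.15 (limma adjusted p = 0.00434) and the DKO minus KO difference 0.74 ± 0.15 (limma adjusted p = 0.00903). Both calls ended without KO 3 (0.063 and 0.105) and under scaling by total reads (0.275 and 0.699), and that of DKO minus KO also with the length trend removed (0.0515).

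Of 50 other interferon-stimulated genes tested, 2 rose and 2 fell in KO against C (6.9% and 7.01% of all genes), 0 passed in DKO against C (0.155%) and 2 were higher in DKO than in KO (6.08%). Tgtp1 and Tgtp2 encode near-identical GTPases related to the IRGM proteins, so reads may be split between them uncertainly. Tgtp1 had a signal of 10.2, 14.1 and 6.31 in DKO, 3.29 and 3.52 in KO and 10.1, 6.96 and 6.70 in C, with both KO libraries below the other 6. Its KO minus C difference was -0.998 ± 0.28 (limma adjusted p = 0.0322) and its DKO minus KO difference 1.29 ± 0.28 (limma adjusted p = 0.0122). Tgtp2 had 14.3, 17.4 and 14.1 in DKO, 9.86 and 10.2 in KO and 30.5, 18.6 and 17.1 in C (KO minus C -1.02 ± 0.22, limma adjusted p = 0.0117). The KO minus C calls of both ended without KO 1 (0.158 for Tgtp1 and 0.0791 for Tgtp2) and without KO 3 (0.155 and 0.0897), as did the DKO minus KO call of Tgtp1 (0.086 and 0.0962), and that of Tgtp1 in KO also without C 1 (0.115), C 2 (0.0609) or C 3 (0.0574). Under scaling by total reads both KO minus C calls ended (0.107 and 0.106).

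Cxcl9, a chemokine that attracts T cells and is induced by type II interferon, had a signal of 9.68, 9.39 and 7.0 in DKO, 3.76 and 3.07 in KO and 8.79, 5.33 and 5.28 in C. Both KO libraries were again the lowest. The DKO minus KO difference was 1.13 ± 0.23 (limma adjusted p = 0.0106), which ended without KO 3 (0.117) and under scaling by total reads (0.0743). Epsti1 had 0.896, 1.75 and 0.374 in DKO, 2.81 and 1.99 in KO and 0.398, 0.693 and 0.587 in C. It rose in KO by 1.12 ± 0.29 (limma adjusted p = 0.0257). These are low levels, and the difference was 1.45 with a pseudocount of 0.5 and 2.16 with edgeR on the recovered reads. Lgals3bp, a secreted glycoprotein, had 42.6, 35.0 and 29.2 in DKO, 42.3 and 46.7 in KO and 33.4, 28.5 and 24.4 in C, and rose in KO by 0.62 ± 0.19 (limma adjusted p = 0.0499). The KO libraries of both genes were above all C libraries, and both calls ended without either KO library (0.188 and 0.1 for Epsti1, 0.14 and 0.269 for Lgals3bp) and without C 1 (0.0853 and 0.0651), C 2 (0.0546 and 0.123) or C 3 (0.0654 and 0.17). That of Lgals3bp also ended with median centring (0.0635) and quantile normalization (0.0533).

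Of 21 genes of MHC class I presentation, 0 rose and 1 fell in KO against C (6.9% and 7.01% of all genes), and 1 was higher in DKO than in KO (6.08%). Psme2, a subunit of the proteasome activator PA28, had a signal of 49.0, 47.6 and 51.6 in DKO, 38.2 and 31.1 in KO and 62.0, 54.3 and 49.3 in C. Both KO libraries were below the other 6, and the KO minus C difference was -0.66 ± 0.16 (limma adjusted p = 0.0193), which ended without KO 3 (0.197), C 1 (0.0912) or C 2 (0.0641). Psmb8, a catalytic subunit of the immunoproteasome, had 28.2, 38.5 and 23.1 in DKO, 17.8 and 15.3 in KO and 31.4, 24.4 and 19.7 in C. Its DKO minus KO difference of 0.79 ± 0.23 passed (limma adjusted p = 0.0457), and the call ended without KO 1 (0.13), KO 3 (0.276), DKO 1 (0.0581), DKO 2 (0.0808), C 2 (0.0723) or C 3 (0.0509). Psme2 and Psmb8 did not pass with the length trend removed (0.303 and 0.0644) or under scaling by total reads (0.693 and 0.608).

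Of the members with a promoter record, 27 held the ISRE core and 24 did not. Among the 27, Gbp7, Ifi205 and Ifi208 were called in KO against C, all lower, and the median log2 difference of the 27 was -0.05. Among the 24, Irf2bpl was called, higher, and the median was 0.15. Of all genes, 13.9% were called. In DKO against KO, Gbp7 was called among the 27, with a median of 0.11. Ifit2, Irf2bpl and Irf3 were called among the 24, with a median of -0.03, against 11.8% of all genes. These counts are descriptions, and no difference between the sets was tested.

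Markers of other cells in the tissue were measured beside the members. All 8 markers of ventricular cardiomyocytes were in the table, with a summed signal of 34461 to 56952 in DKO, 34154 and 38586 in KO and 58055 to 60935 in C, and 1 of the 8 fell in KO, Tnni3. Of 8 fibroblast markers, 3 rose in KO (Col1a1, Col3a1 and Mfap5), and the summed signal was 500.03 to 1123 in DKO, 1017 and 1344 in KO and 481 to 713 in C. Of 5 epicardial markers, Wt1 and Krt19 rose in KO, and of 8 mural cell markers 0 passed in any comparison. Of 9 skeletal muscle markers, 8 fell in KO and 6 in DKO, against C, with median log2 differences over the 9 of -3.84 and -3.13. Over all genes, 6.9% rose and 7.01% fell in KO against C, and 0.0812% fell in DKO against C. Of 6 lymphocyte markers and 3 neutrophil markers in the table, 0 passed in any comparison, and the neutrophil sum was 3.33 to 15.6 in DKO, highest in DKO 2, 2.27 and 3.92 in KO and 2.80 to 5.36 in C. The plasmacytoid dendritic cell markers in the table were Tcf4 with the members Bst2 and Irf7, while Siglech and Ccr9 were not analysed here. The part of these cell types in the values of the members was not tested.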

How the data were processed

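Poly(A) RNA of 8 ventricular samples was sequenced after fragmentation and random priming, per the labels. Of tools, the submitters' processing notes list RSEM 1.3.1, cutadapt and limma, with the build GRCm38 and no roles, with annotation, strand setting and filter not given in the sources used here. Per the values, the deposited signal is (reads + 0.5) in proportion to an effective library size set by the authors. All values (100%) gave back whole reads to within 0.001 reads. A count of 0 allows up to 3 reads in a library, a signal of 0.104 to 0.283 (counting error only).

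Genes that reached a signal of 1 in 2 or more libraries were fitted with limma 3.58.1 (R 4.3.3, intensity trend) on log2(signal + 1), with a pseudocount of 1, in 1 model of 3 group means over the 8 libraries. Benjamini-Hochberg adjustment ran over 13544 genes, with a threshold of 0.05. The log2(signal + 1) scale understates changes of low genes, folds included. Alternatives were a pseudocount of 0.5, no filter, edgeR 4.0.16, DESeq2 1.42.0, median centring, quantile normalization, removal of a length trend, the replicate number as a block, leaving out each library and, chosen after seeing the data, scaling by total reads. The fit was tested on simulated data. Libraries within a group differed beyond counting noise (chi-square per gene 13.6 to 253).

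The members, the pathway and marker lists and the naming rule were chosen with earlier results of these data known. Named with values are members past the threshold, the 3 with the largest change per comparison and direction, the main signalling factors, Isg15, Usp18, and pathway genes past the threshold. Members given values outside that rule (among them Irf2bp1, Irf2bp2, Oas2, Rsad2 and Ifih1) were added after their values were seen. Some members named by the rule are not reported here. Coordinates and transcript lengths are from GENCODE M21 (GRCm38). Promoters are from RefSeq (GRCm38.p6).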

Additional observations from a re-analysis of the deposited data

How the results depend on the processing

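The count of members called in KO against C was 4, against 13.9% of all genes. It was 7 with DESeq2 (18.4% of all genes), 8 with the length trend removed (11.5%) and 16 under scaling by total reads (35.5%). When each DKO or C library was left out, it was 1 to 11 (6.64% to 21.9%). In DKO against C it was 0 under every alternative run (0.155% of all genes in the main fit). In DKO against KO the count was 4, against 11.8% of all genes. It was 8 with DESeq2 (16.4%), 1 with the replicate block (9.37%) and 23 under scaling by total reads (45.8%). When each DKO or C library was left out, it was 1 to 9 (8.29% to 14.7%). Irf3 in DKO against KO reversed under scaling by total reads (-0.034). With the replicate block the count in KO against C was 4 (13.2% of all genes), of which 2, Irf2bpl and Gbp7, were called without it. In DKO against C it was 0 with the block (0.155% of all genes). The block ended the calls of Ifi205 (adjusted p = 0.0869), Ifi208 (0.0602), Lgals3bp (0.0606) and Tgtp1 (0.0547) in KO against C, and those of Irf3 (0.105), Gbp7 (0.0957), Ifit2 (0.0564) and Psmb8 (0.0592) in DKO against KO. Same-numbered samples deviated with correlations of -0.27 to 0.22, not every sample correlated best with its own number, and the numbers were not taken to pair the samples. Over the named members and all alternatives, 1084 values kept their side of the threshold, 43 lost the call and 45 gained it. A further 1, Irf3 in DKO against KO, lost the call with its sign turned. The 1084 include uncalled values whose sign turned, such as Irf7 in KO minus C under scaling by total reads (0.14). The remaining alternatives were a pseudocount of 0.5, no filter, edgeR, median centring and quantile normalization. They gave 4 or 5 members in KO against C (13.6% to 15.1% of all genes) and in DKO against KO (11.7% to 12.5%). Beyond the settings' own construction (fewer libraries, another scaling) the cause was not tested. Transcript length correlated by rank with the KO minus C change over 13538 genes (0.25). KO has 2 libraries, and without either of them the lone sample is assumed to vary like the other groups. Members with few reads, such as Oas3 with 117, limit what this depth can show.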
